A study of Mus musculus with 16 samples.

Results

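The 9 genes described here handle vitamin A in the liver: Lrat, Rbp4, Stra6, Rdh10, Dhrs3, Aldh1a1, Aldh1a2, Rarb and Rxra. They were taken by symbol from a table of 47729 gene rows, and all 9 had a row in each of the 16 libraries. No cut on their measured values was used, but they were chosen with earlier results of these data known. RNA was sequenced from hepatic stellate cells (HSCs), hepatocytes (HEPs), endothelial cells (ECs) and Kupffer cells (KCs) of unchallenged adult mouse livers, with 2 libraries per cell type from mice labelled knock-out (KO) and 2 from mice labelled wild-type (WT). All mice carried a floxed Zeb2, in which exon 7 lies between loxP sites, on an R26R CAG-boosted eGFP reporter background, and all received 2 mg of tamoxifen a day for 5 days. KO mice also carried the Cdh5-CreERT2 driver, which is active in endothelium, whereas WT mice were Cre-negative littermates. The mice were males, 8 weeks old, and collection was in general 2 weeks after tamoxifen. HSCs were sorted as UV-positive cells, a gate that reads the autofluorescence of stored retinoid, KCs as UV-negative F4/80-positive cells and ECs as UV-negative cells positive for the pan-endothelial marker Meca32. HEPs were separated by centrifugation. The sort of HSCs therefore already selected for vitamin A content, and the level of storage genes in HSCs has to be read with that gate.

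Most of the body's vitamin A is stored in the liver as retinyl esters, in the lipid droplets of quiescent HSCs. Retinol taken up by HEPs leaves these cells bound to the plasma carrier RBP4, and HSCs esterify retinol through lecithin retinol acyltransferase (LRAT). In target cells retinol is oxidised to retinal (RDH10), reduced back (DHRS3) or oxidised further to retinoic acid by the ALDH1A enzymes. Retinoic acid acts through retinoic acid receptors such as RARB, which bind DNA with a retinoid X receptor such as RXRA. STRA6 is a membrane receptor for RBP4 best known from the eye.

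The libraries held 12872706 to 15690506 reads on genes, so that 3 reads corresponded to 0.191 to 0.233 CPM (the count of a gene relative to the reads on all genes, scaled to 1000000). Each labelled cell type held its defining markers: the summed CPM of 15 HSC markers was 82653 to 96533 in HSCs and at most 1908 elsewhere, and that of 15 hepatocyte markers was 130898 to 145367 in HEPs. Hepatocyte markers were however above the floor of 3 reads in nearly all other libraries, and their sum differed with the label: 4508 and 9882 CPM in WT HSCs against 772 and 1893 in KO HSCs, 14995 and 30884 in WT ECs against 2594 and 3570 in KO ECs, and 7935 and 11007 in WT KCs against 12280 and 14939 in KO KCs. Zeb2, the targeted gene, was at 106 and 106 CPM in the WT ECs and at 199 and 130 CPM in the ECs labelled KO. It was thus not lower under the KO label (log2 difference 0.62 ± 0.24 SE, edgeR adjusted p = 0.303). Reads were counted over the whole gene whereas only exon 7 is floxed, so the count does not measure the deletion directly, and "KO" below means the library labelled KO. With 2 libraries per label an exact permutation test cannot go below p = 0.333, so labels were compared with edgeR's quasi-likelihood test across all genes.

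Promoter sequences are shown for the 3 members with the largest differences between HSCs and HEPs, Lrat, Rbp4 and Rarb. They come from RefSeq (GRCm38.p6), run 5′ to 3′ on the strand of the gene, and cover 250 bases before to 50 bases after an annotated start. Capitals mark a direct repeat of 2 retinoic acid receptor half-sites, searched for on both strands as the hexamer AGGTCA (the consensus), AGTTCA (a variant), GGGTCA (a variant) or GGTTCA (a variant), in any pairing, with 1, 2 or 5 bases between them. Rarb lies at chr14:16575427-16575726 (reverse strand), Lrat at chr3:82903925-82904224 (reverse strand), and Rbp4 has 2 annotated starts, at chr19:38125272-38125571 and chr19:38124762-38125061 (both on the reverse strand).
Rarb: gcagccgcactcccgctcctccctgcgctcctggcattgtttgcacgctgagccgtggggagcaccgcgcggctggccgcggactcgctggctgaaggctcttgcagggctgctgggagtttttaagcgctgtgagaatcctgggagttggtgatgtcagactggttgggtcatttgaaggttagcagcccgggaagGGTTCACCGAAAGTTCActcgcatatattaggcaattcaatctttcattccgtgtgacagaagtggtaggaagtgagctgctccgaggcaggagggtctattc
Lrat: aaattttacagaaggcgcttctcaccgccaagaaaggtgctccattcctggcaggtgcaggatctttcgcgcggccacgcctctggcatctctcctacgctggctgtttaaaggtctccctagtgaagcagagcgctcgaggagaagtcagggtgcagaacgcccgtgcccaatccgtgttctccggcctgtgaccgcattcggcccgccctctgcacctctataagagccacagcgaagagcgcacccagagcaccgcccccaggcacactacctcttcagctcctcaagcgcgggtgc
Rbp4, first start: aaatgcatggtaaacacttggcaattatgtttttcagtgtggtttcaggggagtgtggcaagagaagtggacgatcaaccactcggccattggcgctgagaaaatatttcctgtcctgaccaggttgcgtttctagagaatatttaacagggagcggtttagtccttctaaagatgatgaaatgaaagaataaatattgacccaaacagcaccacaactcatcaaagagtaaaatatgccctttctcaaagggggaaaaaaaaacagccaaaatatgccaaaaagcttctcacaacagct
Rbp4, second start: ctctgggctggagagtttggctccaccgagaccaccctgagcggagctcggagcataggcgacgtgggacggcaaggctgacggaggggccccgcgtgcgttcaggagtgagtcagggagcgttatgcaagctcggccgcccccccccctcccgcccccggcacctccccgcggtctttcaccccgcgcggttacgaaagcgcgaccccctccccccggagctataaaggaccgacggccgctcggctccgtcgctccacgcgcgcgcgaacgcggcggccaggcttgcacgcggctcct
Of the 16 windows of the 8 genes in the table, only that of Rarb held such a repeat, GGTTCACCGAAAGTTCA, with 5 bases between the half-sites and 53 to 37 bases before the start. Over all 32851 windows, 0.0974% held a repeat with this spacing. Repeats with 1 or 2 bases between the half-sites were in 0.222% and 0.268% of all windows and in none of these 16, and a single half-site was in 43.7% of windows. Rdh10 had no promoter window and was not searched. The printed letters describe the windows only.

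**Figure D1:**
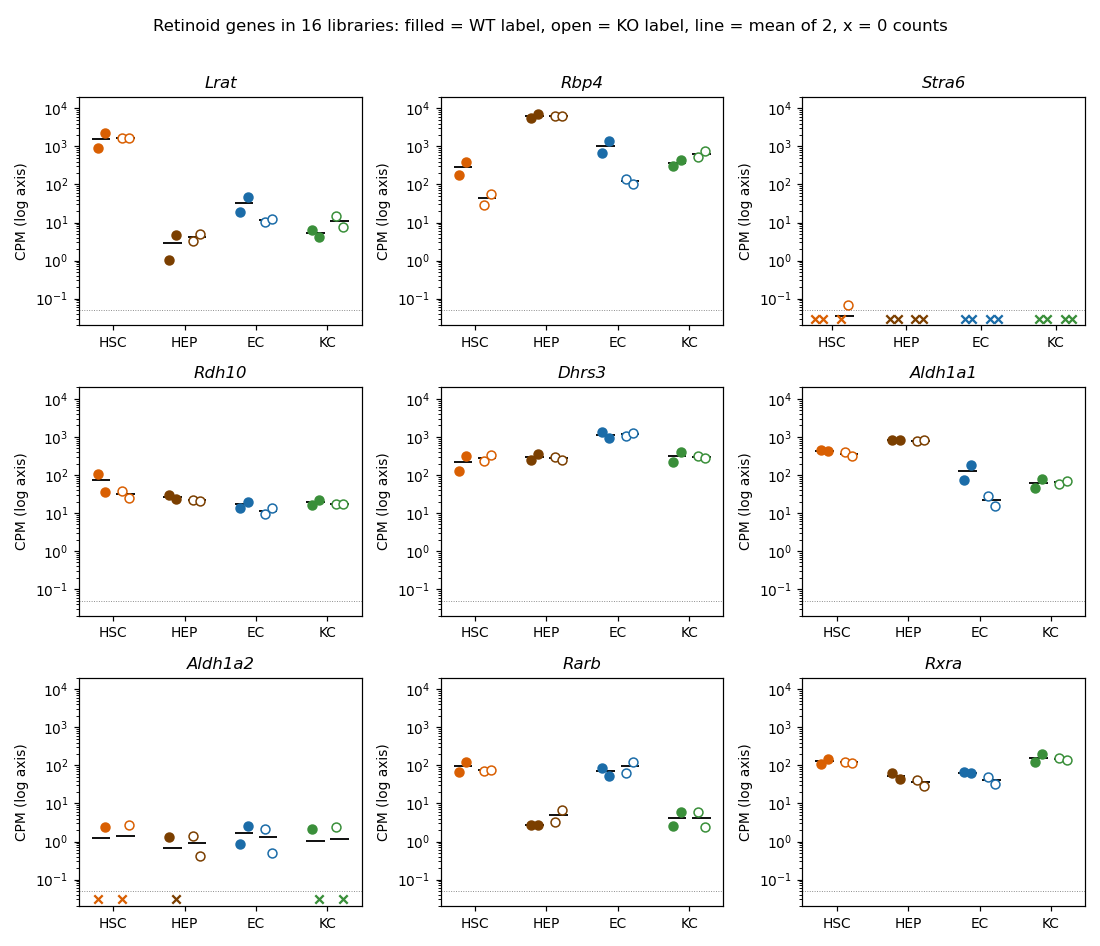
CPM of the 9 genes on a log axis in the 16 libraries, by cell type. Filled points are WT and open points KO libraries, lines are means of 2 libraries and crosses mark libraries with 0 counts; Lrat is high in HSCs only, Rbp4 in HEPs, and Stra6 has 1 read in all.

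Lrat (chr3:82892579-82903973, GRCm38), the enzyme that esterifies retinol for storage, separated HSCs from the other cell types. It was at 896 and 2229 CPM in WT HSCs and at 1683 and 1696 CPM in KO HSCs, against 1.02 and 4.64 CPM in WT HEPs and 3.29 and 4.85 CPM in KO HEPs. The 4 HSC libraries all lay above the 4 HEP libraries, and the lowest HSC library was WT replicate 32. The difference between HSCs and HEPs after TMM scaling was 7.75 ± 0.62 (log2 ± SE, n = 4 against 4, edgeR adjusted p = 5.55e-07), that is 215-fold with a 95% interval of 84.9-fold to 547-fold. With library totals as the only scaling this difference was 8.90 log2. In bulk libraries such as these, fewer cells of a type and less RNA per cell cannot be told apart.

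Outside HSCs and HEPs, Lrat was at 19.3 and 47.7 CPM in WT ECs, 10.6 and 12.3 in KO ECs, 6.51 and 4.18 in WT KCs, and 14.4 and 7.78 in KO KCs. As a share of the mean of WT HSCs these EC and KC levels were 0.267% to 3.05%. The median of the 15 HSC markers stood at 0.384% to 2.06% of its WT HSC level in the same 8 libraries, and the part of HSC RNA in the Lrat reads of ECs and KCs was not tested. In the order HSC, EC, KC, HEP only the first step passed the test (HSC over EC by 6.62 ± 0.58 log2, adjusted p = 6.2e-06); EC and KC (adjusted p = 0.125) and KC and HEP (adjusted p = 0.899) were not separated.

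Rbp4 (chr19:38116629-38125281), the plasma carrier of retinol, showed the opposite split. It was at 5618 and 7131 CPM in WT HEPs and at 6194 and 6149 CPM in KO HEPs. In HSCs it was at 177 and 398 CPM under the WT label and at 28.1 and 57.8 CPM under the KO label. HEPs and HSCs did not overlap, and after TMM scaling HSCs were lower by 6.94 log2 (SE 0.43, adjusted p = 9.72e-08), 123-fold with an interval of 63.8-fold to 237-fold. The fold depends on the scaling. With library totals as the only scaling the difference between HSCs and HEPs was −5.82 log2. ECs (677 and 1404 CPM WT, 138 and 101 KO) and KCs (302 and 453 CPM WT, 538 and 758 KO) lay between them, with KC and EC not separated (adjusted p = 0.0893) and EC above HSC by 1.40 ± 0.34 log2 (adjusted p = 0.00979) in spite of overlapping libraries.

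The Rbp4 level outside HEPs ran beside that of other hepatocyte genes. A list of 857 hepatocyte-enriched genes was set from WT libraries (at least 10 CPM in HEPs and at least 8 times the KC level, so that WT KCs were part of its making), which held 2 members, Rbp4 and Aldh1a1. The median of the 855 others, as a percentage of its WT HEP level, was 3.91% and 7.94% in WT HSCs, 0.915% and 1.39% in KO HSCs, 11.1% and 22.9% in WT ECs, 3.35% and 2.29% in KO ECs, 4.73% and 8.57% in WT KCs, and 9.72% and 11.4% in KO KCs. Rbp4 stood at 2.77% and 6.24%, 0.441% and 0.907%, 10.6% and 22%, 2.17% and 1.59%, 4.75% and 7.10%, and 8.43% and 11.9% of its WT HEP mean in the same libraries. Divided by that median, Rbp4 was at 0.482 to 0.786 in HSCs, 0.649 to 0.963 in ECs and 0.828 to 1.05 in KCs. No library outside HEPs therefore held more than 1.05 times the Rbp4 share that hepatocyte-enriched genes had in general. Hepatocyte RNA and expression in the sorted cells cannot be told apart for this gene.

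Stra6 (chr9:58063788-58153996) was not detectable at this depth in 15 of 16 libraries, which allows up to 0.191 to 0.233 CPM in each, and 1 read (0.0692 CPM) was counted in KO HSC replicate 20. It did not pass the filter on low counts in any comparison and no difference was calculated. Stra6l, a related RBP4 receptor described for liver, was at 227 to 301 CPM in HEPs and at 2.70 to 29.6 CPM in HSCs. It is on the hepatocyte-enriched list, whose median was also well below its HEP level in HSCs. The part of hepatocyte RNA in the Stra6l reads of HSCs was not tested.

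Among the enzymes that interconvert retinol and retinal, Rdh10 (chr1:16105774-16133734) did not separate HSCs from HEPs. After TMM scaling both were above ECs and KCs, but by CPM the HEP and KC libraries overlapped. Rdh10 was at 107 and 36.7 CPM in WT HSCs, 38.2 and 24.6 in KO HSCs, 29.2 and 23.9 in WT HEPs and 22.3 and 21.0 in KO HEPs. The HSC and HEP libraries overlapped, with WT HSC replicate 32 far above the rest. The HSC to HEP difference of −0.14 ± 0.30 log2 (adjusted p = 0.729, interval −0.79 to 0.51) took the other sign with several other settings, among them library totals as the only scaling (0.99, adjusted p = 0.0147, the lowest of the alternatives). KCs (15.9 to 22.3 CPM) were lower than HSCs by 1.32 ± 0.30 log2 (adjusted p = 0.00434), and ECs (9.61 to 20.0 CPM) were not separated from KCs (adjusted p = 0.107).

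Dhrs3 (chr4:144892827-144928209), which reduces retinal to retinol and is a known target of retinoic acid, was highest in ECs, at 1347 and 946 CPM in WT and 1078 and 1284 CPM in KO libraries. HEPs had 246 and 354 CPM (WT) and 300 and 249 CPM (KO), HSCs 126 and 320 (WT) and 239 and 332 (KO), and KCs 222 to 408. By CPM the EC libraries lay apart from all others, whereas HSCs and HEPs overlapped. After TMM scaling, which lowers the effective size of HEP libraries (factors 0.497 to 0.588, as against 1.14 to 1.24 in HSCs), HSCs were lower than HEPs by 1.31 log2 (SE 0.31, adjusted p = 0.00297), but on library totals the difference was −0.19 (adjusted p = 0.604; 0.000134 to 0.604 over the alternatives). The EC level was not separated from the HEP level after TMM scaling (0.65 ± 0.30 log2, adjusted p = 0.0826), while it exceeded that of HSCs by 1.96 ± 0.31 log2 (adjusted p = 0.000621).

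Aldh1a1 (chr19:20492715-20643465), which makes retinoic acid from retinal and is abundant in liver parenchyma, was at 840 and 839 CPM in WT HEPs and at 758 and 811 CPM in KO HEPs. HSCs had 459 and 416 CPM (WT) and 392 and 321 CPM (KO), below every HEP library and above every EC and KC library. After TMM scaling the HSC level was lower than that of HEPs by 2.17 log2 (SE 0.27, adjusted p = 2.82e-05) and higher than that of KCs by 2.58 ± 0.28 log2 (adjusted p = 2.12e-05). On library totals the HSC to HEP difference was smaller, at −1.04 log2 (edgeR adjusted p = 0.00695). In contrast to Rbp4, Aldh1a1 in HSCs was at 38.2% to 54.6% of its WT HEP level, 6.24 to 51.0 times the median of the hepatocyte-enriched genes in the same library. In ECs (73.3 and 180 CPM WT, 28 and 15.6 KO) and KCs (45.4 to 77.1 CPM) this ratio was 0.784 to 0.996 and 0.730 to 1.14.

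**Figure D2:**
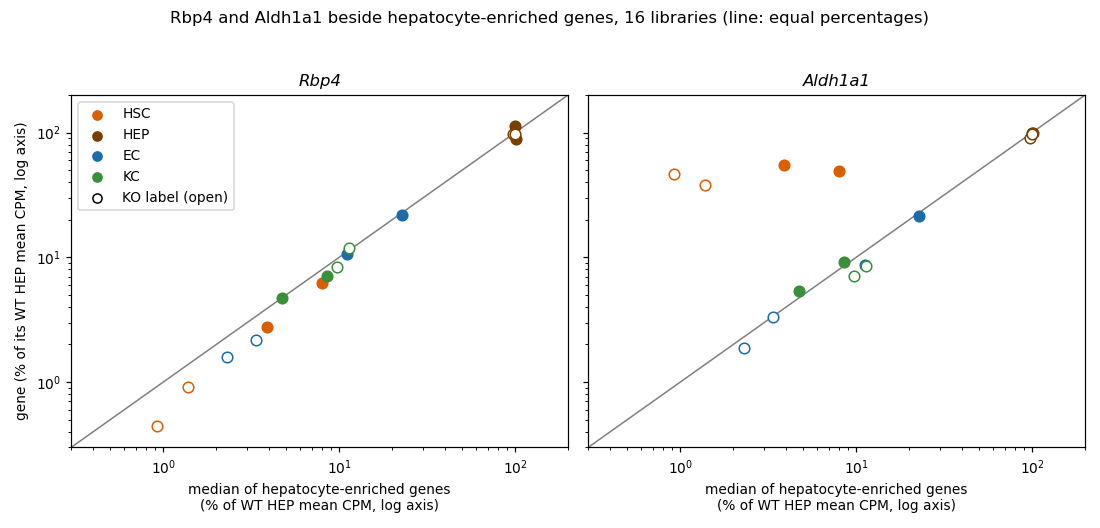
Rbp4 (left) and Aldh1a1 (right) as a percentage of their mean CPM in WT HEPs, against the median percentage of 855 hepatocyte-enriched genes, in 16 libraries on log axes; filled points are WT and open points KO, and the line marks equal percentages. Outside HEPs Rbp4 lies at 0.482 to 1.05 times the line, and Aldh1a1 lies far above it in the 4 HSC libraries.

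Aldh1a2 (chr9:71215789-71296243), another enzyme of this step, was near the limit of detection. It had 0 reads in 5 libraries and 0.40 to 2.77 CPM in the other 11, with at least 1 library above 0 in every cell type. Its differences had intervals of several log2 units in each direction (HSC to HEP −0.32, interval −4.16 to 3.51, adjusted p = 0.916), so that no statement on its split is possible. Aldh1a3, a related enzyme outside the 9, was at 23.2 to 70.4 CPM in HSCs and at 0 or 1 read per library in HEPs. Per length of the gene's exons (RPKM, CPM divided by exon length in kilobases, mean ± SD of 4 libraries), HSCs held Aldh1a1 at 80.4 ± 11.7, Aldh1a3 at 9.78 ± 4.20 and Aldh1a2 at 0.574 ± 0.665.

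Of the receptors, Rarb was present in HSCs and ECs and low in HEPs and KCs. It was at 67.8 and 121 CPM in WT HSCs, 72.3 and 76.1 in KO HSCs, 86.5 and 53.9 in WT ECs and 63.0 and 125 in KO ECs. HEPs had 2.68 and 2.73 CPM (WT) and 3.29 and 6.74 CPM (KO), and KCs 2.44 to 6.00 CPM. The HSC and HEP libraries did not overlap and after TMM scaling differed by 3.37 ± 0.42 log2 (adjusted p = 2.54e-05), 10.3-fold with an interval of 5.48-fold to 19.5-fold. On library totals this difference was 4.51 log2. HSCs and ECs were not separated (0.27 ± 0.37 log2, adjusted p = 0.651), ECs exceeded HEPs by 3.10 ± 0.42 log2 (adjusted p = 4.4e-05), and HEPs and KCs were not separated (adjusted p = 0.0805). Rarb (chr14:16430839-16819156, GRCm38, reverse strand) shares exonic sequence with Top2b and Gm48162 on the opposite strand, and as the strand setting of the counting is not given in the sources used here, its count is uncertain. It is also the gene whose promoter, printed above, held the repeat with 5 bases between half-sites.

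Rxra (chr2:27676440-27762957), the common partner of these receptors, was present in all cell types. It was at 109 and 147 CPM in WT HSCs, 126 and 114 in KO HSCs, 63.8 and 44.5 in WT HEPs, 42.6 and 29.0 in KO HEPs, 65.8 and 62.0 in WT ECs, 48.3 and 33.0 in KO ECs, and 122 to 198 in KCs. By CPM every HSC library was above every HEP library, but after TMM scaling they overlapped (0.37 ± 0.19 log2, adjusted p = 0.111), and on library totals the difference passed the test (1.49 ± 0.23, adjusted p = 0.000126; up to 0.533 over the alternatives). After TMM scaling KCs and HSCs were not separated (adjusted p = 0.13), and ECs were lower than HEPs by 1.15 ± 0.19 log2 (adjusted p = 0.000267). By CPM the EC and HEP libraries overlapped, with a mean of 52.3 in ECs and 45.0 in HEPs.

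Between HSCs and HEPs, 5 of the 8 members tested passed the test at an adjusted p of 0.05, as did 58.4% of the 17214 genes tested: Lrat and Rarb were higher in HSCs (2 of 8 members and 34% of all genes) and Rbp4, Aldh1a1 and Dhrs3 lower (3 of 8 members and 24.4% of all genes). The same 5 had HSC and HEP libraries that did not overlap after TMM scaling, as did 55% of all genes. The median difference of the members was −0.23 log2 and that of all genes 0.60 log2. With library totals as the only scaling the median of all genes moved by 1.07 log2. The share of called genes that were higher in HSCs then went from 58.3% to 80.6%. On that scaling 6 of 8 members passed, as did 69.8% of all genes. Lrat, Rarb, Rxra and Rdh10 were higher, and Rbp4 and Aldh1a1 lower. Lrat, Rarb, Rbp4 and Aldh1a1 passed in the same direction in every setting run, including WT libraries alone and KO libraries alone.

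**Figure D3:**
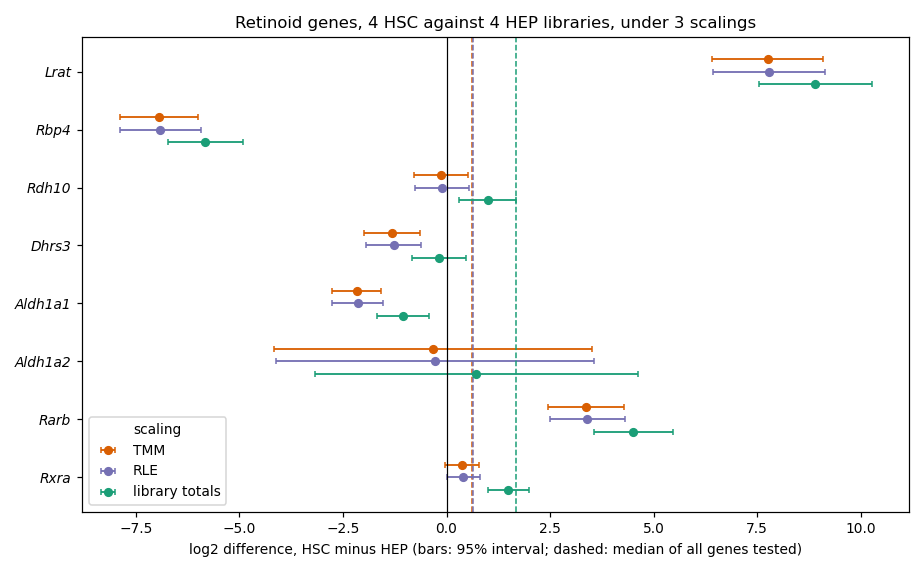
Log2 difference between 4 HSC and 4 HEP libraries for the 8 members tested, under TMM, RLE and library-total scaling. Points are fitted differences, bars 95% intervals and dashed lines the median of all genes tested; Lrat and Rarb lie above 0 and Rbp4 and Aldh1a1 below 0 under each scaling, while Rdh10 and Aldh1a2 change sign and Dhrs3 and Rxra change their side of the threshold.

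Between the other pairs of cell types, 6 of 8 members passed for HSCs and ECs (26% of all genes), all but Rarb and Aldh1a2, and 5 for HSCs and KCs (42.9%), all but Dhrs3, Rxra and Aldh1a2. For HEPs and ECs 5 passed (58.7% of all genes), all but Lrat, Dhrs3 and Aldh1a2, and for HEPs and KCs also 5 (55.6%), all but Lrat, Rarb and Aldh1a2. ECs and KCs differed in Dhrs3 and Rarb, which were higher in ECs, and in Rxra, which was lower (3 of 8 members, 32% of all genes). These calls were made after TMM scaling. On library totals 6 members passed for HEPs and ECs (71.4% of all genes), 3 of them higher in HEPs, against 4 higher with TMM. For HEPs and KCs 4 passed on library totals (63.2%), 2 of them higher in HEPs, against 4 higher with TMM. For ECs and KCs 4 passed on library totals (36.2%).

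The other genes of the pathway were examined through 5 lists, of transport proteins, retinyl ester enzymes, enzymes of retinol and retinal, enzymes that make or break down retinoic acid, and receptors with their cofactors. Of 53 genes, 52 were in the table and 47 were tested between HSCs and HEPs. Of these 47, 12 were higher and 30 lower in HSCs (median −3.16 log2, as against 0.60 for all genes). Among all genes tested 34% were higher and 24.4% lower. On library totals 12 were higher and 25 lower. Of the 16 that were on the hepatocyte-enriched list, 15 were lower in HSCs, a direction which that list favours by its making; of the 31 others 11 were higher and 15 lower.

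After TMM scaling, transport and ester enzymes were mostly lower in HSCs. The HSC to HEP counts per list given here and below all use that scaling. They stand beside 34% of all genes higher and 24.4% lower in HSCs. Over the 5 lists together, 30 genes were lower with TMM and 25 on library totals. Of 6 transport genes tested, 4 were lower in HSCs. Of 9 ester enzymes, 1 was higher, Lpl (lipoprotein lipase, 1.92 ± 0.43 log2, adjusted p = 0.00241), and 7 were lower, with Ces1g, a carboxylesterase, at 0.384 to 6.46 CPM in HSCs and 67.3 to 320 CPM in HEPs. Pnlip, pancreatic lipase, was also among these 7, but it was at 0, 73.9, 1012 and 1499 CPM in the 4 HEP libraries and at 0, 0, 0.0692 and 2.97 CPM in HSCs, so its spread within HEPs was as wide as the difference. Lpl was higher still in KCs (972 to 1051 CPM).

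Of 18 enzymes of retinol and retinal, 3 were higher and 14 lower in HSCs. Bco1, which cleaves carotene to retinal, was the most abundant of those higher, at 230 to 391 CPM in HSCs and 10.1 to 19.1 CPM in HEPs (3.17 ± 0.65 log2, adjusted p = 0.00119). Rdh16, Rdh9 and Adh7, retinol dehydrogenases, were at most at 1.02, 0.192 and 0.32 CPM in HSCs, against 31.7 to 53.6, 1.48 to 7.01 and 6.88 to 13.4 CPM in HEPs. Of the 6 genes of retinoic acid synthesis and breakdown, 1 was higher (Aldh1a3, above) and 3 lower. Several of these families (Ces1, Rdh, Adh) hold near-identical copies, so that reads may be split between copies and single values are uncertain. Cyp26a1, which degrades retinoic acid, was at 64.0 to 259 CPM in HEPs and at 0, 0, 0.961 and 2.18 CPM in HSCs, where both libraries at 0 were KO. It is on the hepatocyte-enriched list, whose median was also lower in KO than in WT HSCs. The part of hepatocyte RNA in its HSC values was not tested.

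Of 8 receptors and cofactors 6 were higher and 2 lower in HSCs, with a median of 1.15 log2, where all genes had a median of 0.60 log2 and 34% were higher. Rarg was at 44.4 to 57.1 CPM in HSCs and 0.607 to 1.42 CPM in HEPs (4.60 ± 0.32 log2, adjusted p = 1.9e-07), and Rara was higher by 1.70 ± 0.26 log2 (adjusted p = 0.000121). Per exon length, HSCs held Rxra at 22.7 ± 3.15, Rara at 18.2 ± 5.03, Rarb at 16.0 ± 4.72 and Rarg at 12.4 ± 1.35 RPKM. In HEPs Rxra stood at 8.24 ± 2.62 RPKM, Rara at 2.52 ± 0.887, Rarb at 0.733 ± 0.369 and Rarg at 0.233 ± 0.104. In ECs Rarg led with 22.5 ± 3.47 RPKM, followed by Rarb with 15.6 ± 6.04 and Rxra with 9.57 ± 2.72.

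**Figure D4:**
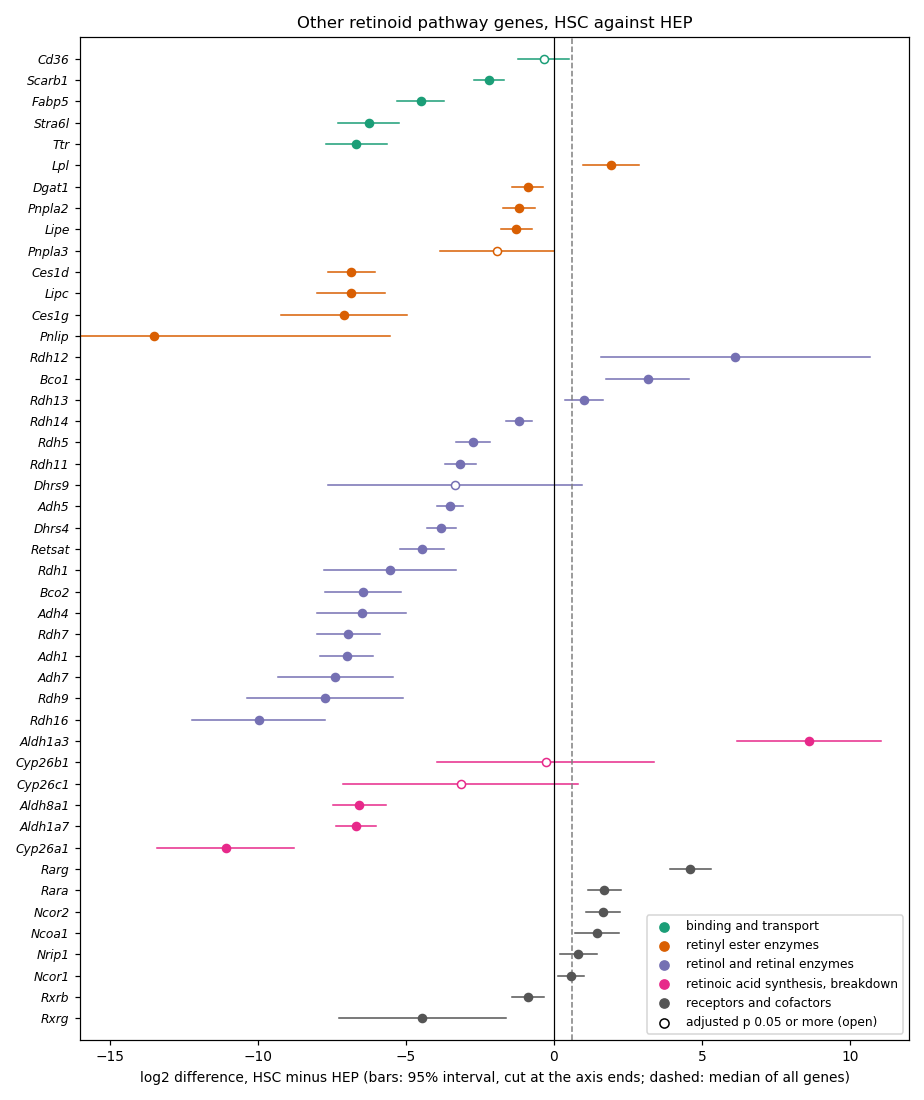
Log2 difference between HSCs and HEPs after TMM scaling for other retinoid pathway genes of 5 lists, with 95% intervals and the median of all genes tested as a dashed line. Filled points passed the test, of which 30 lie below 0; fitted values of genes with almost no reads in one cell type, such as Aldh1a3, Cyp26a1, Rdh16, Rdh9 and Adh7, depend on the small count added by the fit.

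How deletion of Zeb2 in endothelium acts on each liver cell type is the question the design puts, and the members were compared between KO and WT label within each. In HSCs no member passed the test, and neither did any of the 14390 genes tested (0%; 1259 had an unadjusted p under 0.05, and DESeq2 called 406). Lrat was not separated between labels (0.10 ± 0.43 log2, adjusted p = 0.972, interval −0.97 to 1.18). Rbp4 was lower in both KO HSC libraries (−2.73 ± 0.55 log2, edgeR adjusted p = 0.339), and passed under DESeq2 (adjusted p = 1.37e-05) and in the fit of all 16 libraries (adjusted p = 0.0265), with a range from 1.66e-10 to 0.701 over the alternatives. The hepatocyte-enriched median given above was also lower in both, and all 15 hepatocyte markers had an unadjusted p under 0.05; the part of hepatocyte RNA in the difference was not tested. After TMM scaling the KO and WT libraries also did not overlap for Rdh10 (−1.24 ± 0.54 log2, adjusted p = 0.602) and Aldh1a1 (−0.32 ± 0.21, adjusted p = 0.76). By CPM the Rdh10 libraries overlapped, and without WT replicate 32 its difference was −0.24 log2. In total 3 of 8 members were without overlap, as were 40.5% of all genes.

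The summed CPM of 9 HSC activation markers was 4657 and 3552 in WT HSCs and 3001 and 1907 in KO HSCs, and none of the 9 passed the test (3 had an unadjusted p under 0.05; median −0.72 log2, range −1.27 to 1.93). Collagens made up most of that sum, with Col3a1 at 2327 and 1588 CPM in WT and 1186 and 498 CPM in KO HSCs, whereas Acta2, the gene of smooth muscle actin, was at 25.5 and 31.1 CPM in WT and 54.7 and 160 CPM in KO HSCs. In the same libraries the summed CPM of 10 EC markers was 810 and 415 in WT and 276 and 290 in KO HSCs (none passed, 7 with an unadjusted p under 0.05, median −1.28 log2), and that of 7 portal fibroblast and smooth muscle markers was 111 and 104 in WT and 212 and 302 in KO HSCs (none of 5 tested passed, 2 with an unadjusted p under 0.05, median 1.44 log2). Their part in the members' values was not tested. None of the 39 other retinoid genes tested in HSCs passed either (14 had an unadjusted p under 0.05). Of the 14 hepatocyte-enriched genes among them 13 had a lower estimate under the KO label (median −2.41 log2), and of the 25 others 13 had a lower and 12 a higher one (median −0.0050 log2).

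In ECs 1 of the 8 members tested passed, as did 2.08% of the 14631 genes. Of those genes 288 were lower and 17 were higher in KO. Rbp4 was at 677 and 1404 CPM in WT ECs and at 138 and 101 CPM in KO ECs, without overlap, a fall of 3.12 log2 (SE 0.40, adjusted p = 0.029), 8.69-fold with an interval of 4.46-fold to 16.9-fold. Aldh1a1 had the next largest difference (−2.54 ± 0.47 log2, adjusted p = 0.0559) and passed under DESeq2 and in the 16-library fit (adjusted p = 7.11e-07 and 0.00906; 3.8e-15 to 0.176 over the alternatives). Lrat (−1.54 ± 0.46, adjusted p = 0.195) and Rxra (−0.66 ± 0.25, adjusted p = 0.286) were also lower in both KO libraries but did not pass. In total 4 of 8 members were without overlap between labels, as were 48.5% of all genes.

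These differences in ECs stood beside those of other cells' RNA. The hepatocyte-enriched median fell from 11.1% and 22.9% in WT ECs to 3.35% and 2.29% in KO ECs, and 13 of 15 hepatocyte markers passed the test as lower (median −2.89 log2). When the hepatocyte-enriched genes other than the members were left out before scaling, no gene passed (0 of 13800, 1665 with an unadjusted p under 0.05) and Rbp4 lost its call (−3.16 log2, adjusted p = 0.135). That step does not alter the reads of Rbp4 itself and is no measure of their source. Without KO replicate 6 the adjusted p of Rbp4 was 0.0597 and without KO replicate 46 it was 0.0852, and 0.135 was the highest of the alternatives. For Lrat, the summed CPM of the 15 HSC markers was 1712 and 1908 in WT ECs and 854 and 1218 in KO ECs, and 8 of 14 had an unadjusted p under 0.05 (median −1.05 log2). The part of hepatocyte and HSC RNA in these differences was not tested.

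The EC-abundant members were not separated between labels. Dhrs3 differed by 0.05 ± 0.30 log2 (adjusted p = 0.968, interval −0.68 to 0.77) and Rarb by 0.44 ± 0.42 log2 (adjusted p = 0.683, interval −0.56 to 1.44). Of the 43 other retinoid genes tested in ECs, 6 were lower under the KO label and none higher: Ttr, which carries RBP4 in plasma (−2.83 ± 0.44 log2, adjusted p = 0.0378), Stra6l (−3.11 ± 0.33, adjusted p = 0.0245), the hepatic lipase gene Lipc, the carboxylesterase gene Ces1g, the retinol dehydrogenase gene Rdh7 and Retsat, which saturates retinol. Of these 6, 5 were on the hepatocyte-enriched list. Retsat was not, but it too was higher in HEPs than in ECs. Its mean TMM-normalized CPM was 534 in WT and 520 in KO HEPs, and 148 in WT and 41.1 in KO ECs. The part of hepatocyte RNA in these 6 differences was not tested.

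In HEPs, the main source of Rbp4, no member and no gene passed (0% of 11548; 821 with an unadjusted p under 0.05, 27 called by DESeq2). Rbp4 differed by 0.01 ± 0.19 log2 (interval −0.45 to 0.47) and Aldh1a1 by −0.03 ± 0.18 log2 (interval −0.48 to 0.42), the narrowest intervals of the members. Rxra was lower in both KO libraries (−0.54 ± 0.25, adjusted p = 0.708) and Rarb higher (0.97 ± 0.55, adjusted p = 0.732). Together with Rdh10 these were 3 of 8 members without overlap, as were 40.8% of all genes.

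In KCs likewise no member and no gene passed (0% of 13867; 706 with an unadjusted p under 0.05, 72 called by DESeq2). Rbp4 was at 302 and 453 CPM in WT and 538 and 758 CPM in KO libraries (0.75 ± 0.33 log2, adjusted p = 0.933), while the hepatocyte-enriched median went from 4.73% and 8.57% to 9.72% and 11.4%. Lrat, at 4.18 to 14.4 CPM, was also higher in both KO libraries (0.97 ± 0.58, adjusted p = 0.933). These 2 were the only members of 8 without overlap, as were 37.3% of all genes.

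**Figure D5:**
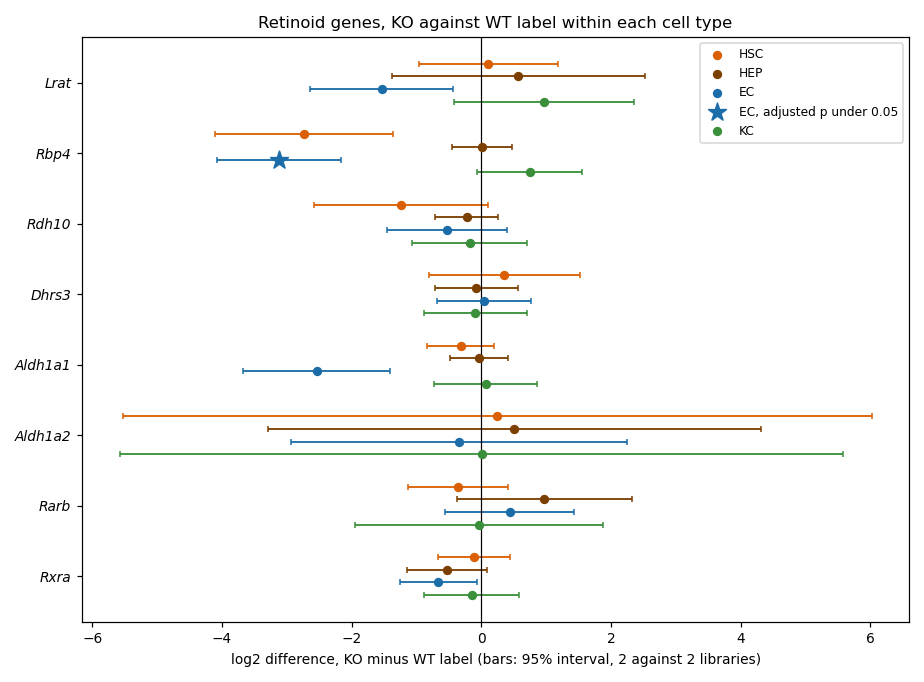
Log2 difference KO minus WT label for the 8 members tested, within HSCs, HEPs, ECs and KCs (2 against 2 libraries). Points are fitted differences and bars 95% intervals; the star marks Rbp4 in ECs, with an adjusted p of 0.029, and the widest bars belong to Aldh1a2.

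Rbp4 and Aldh1a1 were the members whose label difference was itself different between cell types. For Rbp4 the difference in ECs lay below that in KCs by 3.88 log2 (SE 0.69, adjusted p = 0.0206; 2.07% of genes passed) and that in HSCs below that in KCs by 3.51 log2 (SE 0.69, adjusted p = 0.0473; 0.593% of genes passed). Rbp4 did not pass between HSCs and ECs (0.37 ± 0.67, adjusted p = 1; 0.0349% of genes passed). For Aldh1a1 the difference in ECs lay below that in KCs by 2.62 log2 (SE 0.54, adjusted p = 0.0326). No member passed between HSCs and HEPs (0.0755% of genes passed), HEPs and ECs (0.0697%) or HEPs and KCs (0.0116%), the nearest being Aldh1a1 and Rbp4 between HEPs and ECs (adjusted p = 0.0745 and 0.0832). With hepatocyte-enriched genes left out before scaling, the 3 differences were −3.91, −3.53 and −2.65 log2 and none passed (adjusted p = 0.0708, 0.254 and 0.111). That step leaves the reads of Rbp4 and Aldh1a1 as they are, so it does not measure how many of them came from HEPs.

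Over the 16 libraries, the 5 genes whose log2 CPM ran most like that of Lrat, among 16357 genes, were Colec11, Ccdc3, Ngfr, Col14a1 and Myl9 (Pearson r 0.981 to 0.986). Colec11 and Ngfr are on the HSC marker list. Colec11 was at 5129 to 9003 CPM in HSCs and at 9.57 to 109 CPM elsewhere. The 5 most like Rbp4 were the plasma protein genes Gc, Fga and Apoc3 together with Gnmt and Gjb1 (r 0.998 to 0.999), all on the hepatocyte-enriched list. These correlations are descriptions over 16 libraries that share cell types, livers or batches in ways not known here.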

How the data were processed

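Gene counts from 16 RNA-seq libraries were used, 2 for each of 8 combinations of cell type and label. The deposited values are raw counts per gene, which the authors made with Trimmomatic 0.32, HISAT2 2.1.0 and HTSeq 0.9.1 on GRCm38, tools named in the submitters' processing notes together with edgeR. The annotation release and strand setting are not given in the sources used here. The labels name a stranded TruSeq mRNA kit, whereas the design text of the series names Smart-seq2, and this was not settled. Of all lines counted per library, 24.8% to 47.9% were reads aligned to several places and 1.31% to 14.0% fell on no gene; these lines were left out, and reads of near-identical copies are therefore undercounted.

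CPM was calculated over gene rows only, and RPKM from exon lengths of GENCODE M21, which held 47310 of 47729 gene identifiers. Labels were compared within each cell type (4 libraries), and cell types and differences between cell types in one fit of all 16 libraries, with edgeR 4.0.16 in R 4.3.3 (filterByExpr, TMM, quasi-likelihood test, Benjamini-Hochberg adjustment over all genes tested, threshold 0.05). Of the 9 members 8 passed the filter. Alternatives were DESeq2 1.42.0, RLE size factors, other filters, other sets of libraries, hepatocyte-enriched genes left out before scaling, and each library left out in turn. Scaling by library totals was added after seeing the data. The code was tested on simulated data. Tables and figures were made with Python 3.11.15, pandas 2.3.3 and matplotlib 3.10.9.

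Named genes were the 9 members, Zeb2, up to 6 other retinoid genes with the highest and 6 with the lowest HSC to HEP difference among those past the threshold with at least 1 CPM, those past the threshold between labels, marker genes, and the 5 genes most like Lrat and Rbp4. A gene that this rule names is not reported here, and the plot of other retinoid genes leaves it out. Stra6l in HSCs and the Cyp26b1 values were named after their values were seen. Members and gene lists were chosen with earlier results of these data known. Libraries of one group differed by more than sampling noise, so none was taken as a duplicate. Nothing in the labels says which libraries of different cell types share a liver, and p-values measure the spread between libraries only. Intervals and floors of 3 reads cover counting error only where no replicate enters them.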

Additional observations from a re-analysis of the deposited data

Results flagged for a closer look

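The label difference of 2 members differed between cell types by a test of that difference (edgeR, 16 libraries, adjusted over 17214 genes). For Rbp4 the KO to WT difference in HSCs lay below that in KCs by −3.51 log2 (SE 0.69, interval −5.01 to −2.004, adjusted p = 0.0473), with Rbp4 lower in both KO HSC libraries and higher in both KO KC libraries. For Rbp4 in ECs against KCs the value was −3.88 log2 (SE 0.69, interval −5.39 to −2.37, adjusted p = 0.0206), with the same pattern of libraries. For Aldh1a1 in ECs against KCs it was −2.62 log2 (SE 0.54, interval −3.79 to −1.46, adjusted p = 0.0326), with lower levels in both KO EC libraries and overlapping labels in KCs. The hepatocyte-enriched median moved with the label in the same directions, lower under KO in HSCs and ECs and higher under KO in KCs, and its part in these values was not tested. Groups of 2 libraries are too small for a test of single outlying libraries.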

How the results depend on the processing

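No paired analysis was possible because the groups compared share no replicate numbers. Of 463 gene values under alternatives, 386 kept direction and side of the threshold, 46 took the other sign, 11 lost and 20 gained a call; the causes were not tested. Between labels in HSCs, 0 members and 0 genes passed, against 2 and 663 with no filter (Rbp4 and Rdh10), 1 and 406 with DESeq2, and 1 and 178 in the fit of 16 libraries. In ECs, 1 member and 305 genes passed, against 3 and 1259 with no filter, 2 and 489 with at least 10 counts per library, 3 and 983 with DESeq2, and 0 and 0 with hepatocyte-enriched genes left out. In the 16-library fit 2 EC members passed, and with 1 library left out 0 (without KO replicate 6 or 46) to 3 (without WT replicate 34) members and 3 (without KO replicate 46) to 688 (without WT replicate 34) genes; those fits hold fewer samples. Lrat in ECs passed with no filter (adjusted p = 0.00171), with DESeq2 (adjusted p = 0.0342) and without WT replicate 34 (adjusted p = 0.0237). In HEPs 227 genes passed with no filter, 27 with DESeq2 and 0 to 55 (without KO replicate 25) with 1 library left out; in KCs 159, 72 and 0 to 12 (without KO replicate 43). Between HSCs and HEPs 5970 genes passed with at least 10 counts per library, where fewer genes were tested, against 10052. Dhrs3 also lost its call with WT libraries alone (−1.45, adjusted p = 0.0574). Rxra gained one with no filter (0.64, adjusted p = 0.0466), with at least 10 counts (0.59, adjusted p = 0.0113) and in 5 of 8 fits with 1 library left out.

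For the difference between HSCs and KCs, 1 member and 102 genes passed, against 0 members with RLE, 0 and 48 with library totals, 224 genes with at least 10 counts, and 0 and 0 with hepatocyte-enriched genes left out. For ECs and KCs, 2 members and 357 genes passed, against 1 and 225 with library totals and 0 and 7 with hepatocyte-enriched genes left out. For HEPs and ECs, 2 members passed with at least 10 counts and 0 otherwise.

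The HSC to HEP sign of Rdh10 turned with library totals (0.99), no filter (0.13), at least 10 counts (0.084) and WT libraries alone (0.41), and ran from −0.39 (without WT HSC replicate 32) to 0.41 (without WT HSC replicate 40) with 1 library left out. For Aldh1a2 it turned with library totals (0.72) and ran from −3.73 to 3.44. Label differences that turned were Aldh1a1 in HEPs (0.0039) and Rarb in KCs (0.00085) in the 16-library fit, and Aldh1a2 in KCs with RLE (−0.0053) and DESeq2 (−0.014). With 1 library left out, signs turned for uncalled values only. In HSCs, Lrat ran from −0.41 to 0.87, Dhrs3 from −0.16 to 1.15, Aldh1a2 from −7.23 to 7.42, Rarb from −0.72 to 0.089 and Rxra from −0.31 to 0.096. In HEPs, Lrat ran from −0.17 to 2.12, Rbp4 from −0.20 to 0.26, Dhrs3 from −0.36 to 0.27, Aldh1a1 from −0.14 to 0.079 and Aldh1a2 from −0.54 to 6.77. In ECs, Dhrs3 ran from −0.21 to 0.37, Aldh1a2 from −1.67 to 0.60 and Rarb from −0.21 to 0.89. In KCs, Dhrs3 ran from −0.38 to 0.28, Aldh1a1 from −0.18 to 0.36, Aldh1a2 from −7.08 to 7.16, Rarb from −0.77 to 0.55 and Rxra from −0.37 to 0.12. At this depth Stra6 and Aldh1a2 give no usable comparison.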

Other observations

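Cyp26b1, an enzyme that degrades retinoic acid, was at 249 and 63.5 CPM in WT ECs and at 19.7 and 119 CPM in KO ECs, whereas the other 12 libraries held 0 to 4.33 CPM. This gene was chosen after its values were seen, and the EC labels overlapped. Its paralog Cyp26a1 was lower in ECs, at 6.35 and 7.92 CPM in WT and 1.18 and 2.64 CPM in KO libraries. In KCs Cyp26a1 was at 1.27, 3.46 and 5.01 CPM in 3 libraries and at 34.9 CPM in KO replicate 43. Cyp26a1 is on the hepatocyte-enriched list. The median of that list was also lower in KO than in WT ECs, and among KCs it was highest in KO replicate 43. The part of hepatocyte RNA in these Cyp26a1 values was not tested.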
